A study of Mus musculus with 16 samples.

Results

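Oxidative phosphorylation was examined in mouse liver through 94 genes, of 51912 in the count table, that encode subunits of the respiratory chain and ATP synthase. Members were taken by symbol: Sdha to Sdhd, Cyc1, symbols starting with Nduf (without the Ndufaf assembly factors), Uqcr, Cox4 to Cox8, Atp5, mt-Nd, mt-Co, mt-Atp or mt-Cyt, without pseudogenes, and with a count of at least 10 in at least 4 libraries. Of 111 matching symbols, 12 were pseudogenes or listed as such and 5 were under the count minimum. Complex I had 43 members, complex II 4, complex III 10, complex IV 18 and complex V 19. The nuclear genome encodes 81 of them and the mitochondrial genome 13. All 94 passed the filter for testing, as did 14920 genes in all. The symbols also took in a few genes that are not plain subunits, such as Cox7a2l, a factor of supercomplex assembly, Ndufab1, the mitochondrial acyl carrier protein, and Atp5s, a factor linked to the synthase. Ndufa4 and Ndufa4l2 were counted with complex IV.

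The 16 libraries came from livers of male mice, 13 weeks old, kept at about 22 °C. From 10 weeks of age they ate a control diet or a diet low in isoleucine, an essential branched-chain amino acid, for 3 weeks, and livers were taken after a fast of 16 h or after refeeding. This gave 4 groups of 4 libraries, called here control fasted, low isoleucine fasted, control refed and low isoleucine refed. The sources used here do not give the strain or how long refeeding lasted. RNA was enriched for poly-A tails and made into stranded libraries with total counts from 24368656 to 34002955. Libraries are numbered 1 to 4 in each group by the mark in their labels, and each group carries 1 number of its own there too, whose meaning is not stated and which cannot be told apart from diet and feeding. Levels are TMM-normalised CPM (counts scaled to a common library total), given as mean ± SD with n = 4. Calls are edgeR quasi-likelihood tests with a Benjamini-Hochberg adjusted p under 0.05 over all 14920 genes.

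Complex I (NADH dehydrogenase) and complex II (succinate dehydrogenase) pass electrons from NADH and succinate to ubiquinone. Complex III hands them to cytochrome c and complex IV (cytochrome c oxidase) to oxygen, and the proton gradient built by complexes I, III and IV drives ATP synthesis in complex V. Complexes I, III, IV and V are assembled from subunits of both genomes, while complex II is nuclear throughout. The mitochondrial mRNAs are cut from long polycistronic transcripts. In liver the chain carries the electrons of fatty acid oxidation during a fast.

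The deposited counts of 6 of the 13 mitochondrial genes were shared with near-identical nuclear copies that lie next to each other on chromosome 1. GENCODE M21, on the GRCm38 build, places these copies at chr1:24612407-24616197 on the minus strand, while the genes themselves lie on the plus strand of the mitochondrial genome. The first 60 bases that each of 3 genes shares with its copy are shown because a read from such a stretch can be assigned to either; capitals mark the bases that differ.
mt-Co2: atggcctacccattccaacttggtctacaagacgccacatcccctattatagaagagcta
Gm28661: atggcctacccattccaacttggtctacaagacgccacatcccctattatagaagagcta
mt-Nd3: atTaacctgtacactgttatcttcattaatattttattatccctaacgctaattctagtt
Gm28438: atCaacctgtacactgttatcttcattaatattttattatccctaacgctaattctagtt
mt-Co1: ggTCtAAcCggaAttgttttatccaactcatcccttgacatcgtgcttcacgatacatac
Gm29216: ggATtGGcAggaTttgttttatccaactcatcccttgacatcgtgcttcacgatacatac
Counted from 1 at the gene's first annotated base, the copy of mt-Nd3 differed by T3C over 345 shared bases. The stretch of mt-Co1 shown starts at base 1054, and its copy differed there by T1056A, C1057T, A1059G, A1060G, C1062A and A1066T and matched at the other 486 of 492 bases. mt-Co2 and Gm28661 had 0 mismatches over 681 bases, as had mt-Co3 and Gm28437 over 783, mt-Atp6 and Gm10925 over 678, and mt-Nd4l and Gm10222 over 294.

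Most counts of 4 of these genes were booked to the copy in every library. Of the counts of mt-Co2 and Gm28661 together, 96.7% to 99.5% stood under the copy, with mean counts of 5684 and 277251 per library. The share was 96.1% to 99.3% for mt-Co3, a second core subunit of complex IV, and 92.9% to 97.7% for mt-Atp6, the proton channel subunit of complex V. For mt-Nd3, a membrane subunit of complex I, it was lower, at 56.3% to 88.9%. mt-Nd4l, another membrane subunit, ranged from 0.13% in low isoleucine refed library 1 to 60.1% in low isoleucine fasted library 3. mt-Co1, the catalytic subunit of complex IV, was the least touched, at 8.25% to 16.4%. The remainder under the mt-Co2 identifier spanned a 5.52-fold range over the 16 libraries and the sum with its copy a 1.83-fold range; for mt-Co3 the ranges were 7.87-fold and 2.06-fold. Levels of these 6 genes are therefore given below with their copies added, and results on the bare identifiers are marked as such.

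**Figure D1:**
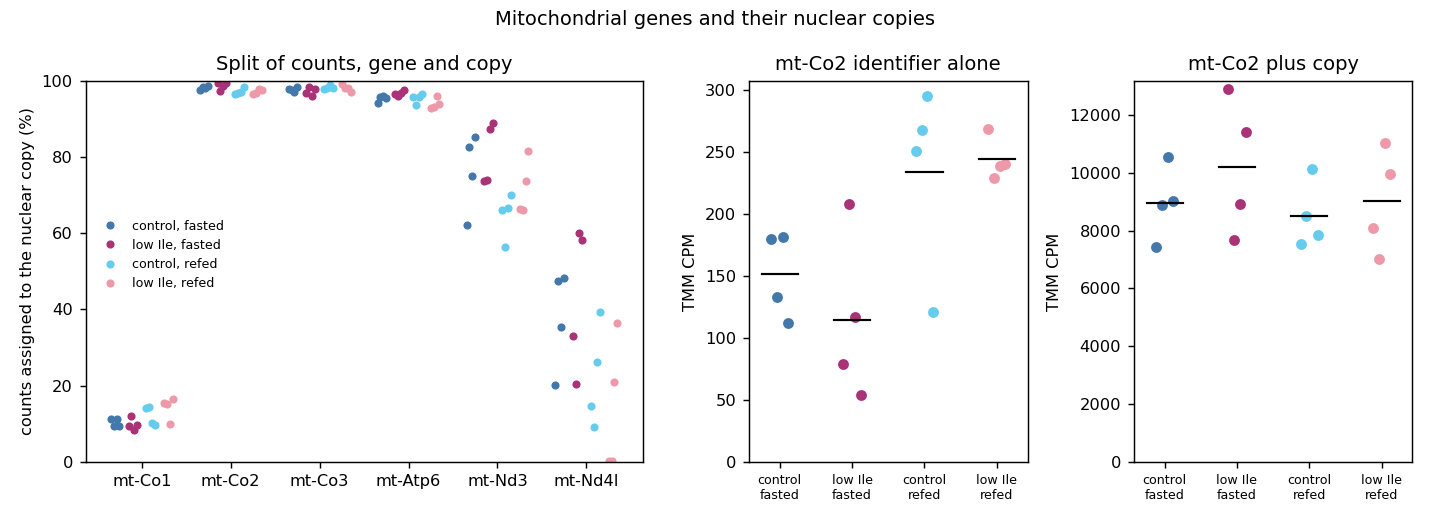
The left panel plots, for each library (point, coloured by group), the percent of the joint counts of 6 mitochondrial genes and their nuclear copies that were assigned to the copy. The middle and right panels plot TMM CPM of mt-Co2 under its own identifier and with the copy added, with bars at group means; the low isoleucine refed libraries stand above the fasted ones in the middle panel only.

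Among the nuclear members, 4 shared sequence in the same sense with a pseudogene that held over 10% of the joint counts. These were Ndufb4 with Ndufb4c (69.0% in the copy), Atp5l with Gm10221 (40.5%), Atp5g2 with Gm10175 (30.7%) and Ndufab1 with Gm4459 (12.3%), and values of these 4 are uncertain. Atp5l also shares sequence with the coding gene Ankrd40, which had 39.4% of their joint counts. Ndufb2, Ndufc1, Ndufb11 and Ndufb5 share sequence in the opposite sense with a gene that had 42.2%, 51.8%, 23.5% and 20.1% of the joint counts. For Cox6c, Atp5j and Atp5f1 the share of such a gene was 15.6%, 14.1% and 10.9%, and it was under 10% for any other member. The sources used here do not say whether counting used strand. mt-Nd6, the member encoded on the other mitochondrial strand, lies opposite further mitochondrial RNA and is uncertain for the same reason.

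Mitochondrial mRNAs far outweighed the nuclear members. With copies, the 13 mitochondrial genes held 10.3 ± 0.951% of counts in control fasted, 11.5 ± 2.08% in low isoleucine fasted, 10.1 ± 0.845% after refeeding of controls and 10.8 ± 1.67% in low isoleucine refed mice. The 81 nuclear members held 0.883 ± 0.025%, 0.899 ± 0.0796%, 1.00 ± 0.114% and 1.06 ± 0.115% in the same order. The 4 groups overlapped in the mitochondrial share. In the nuclear share, control fasted (0.860% to 0.916%) and low isoleucine refed (0.933% to 1.21%) libraries did not overlap. These groups differ in both diet and feeding. In TMM-scaled CPM their nuclear sums did overlap, at 9020 to 9529 CPM and 9439 to 11343 CPM. Across all groups the nuclear sums ran from 8456 CPM in low isoleucine fasted library 1 to 11343 CPM in low isoleucine refed library 4. In bulk liver, fewer cells of a type and less RNA per cell cannot be told apart.

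Per kilobase of exon, the mitochondrial genes ranked mt-Co1 (21711 CPM per kb), mt-Atp6 (14245), mt-Co3 (13776), mt-Co2 (13421), mt-Cytb (10626), mt-Nd1 (7176), mt-Nd2 (6570), mt-Nd4 (5734), mt-Atp8 (3864), mt-Nd6 (3710), mt-Nd4l (3704), mt-Nd5 (3099) and mt-Nd3 (2220), as means of all 16 libraries with copies added. All 7 complex I genes thus lay under mt-Cytb, the complex III gene, and under the complex IV genes. The values of mt-Atp8, mt-Nd4l and mt-Nd3 are uncertain, since these genes are only 204, 297 and 348 bases long. mt-Atp8 and mt-Nd4l also overlap mt-Atp6 and mt-Nd4, and how reads were split between them was not tested. Nuclear members were far scarcer. Their medians per kb of exon were 35.9 CPM in complex I, 76.4 in complex II, 74.1 in complex III, 75.9 in complex IV and 59.6 in complex V. The order of these 5 medians is loose, since exon lengths of nuclear members run over many untranslated bases, and by coding length the medians were 101, 227, 226, 358 and 291 CPM per kb.

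Within complex I the nuclear genes ran from Ndufb2 (4.76 CPM per kb of exon), an accessory subunit, to Ndufb9 (124), another accessory subunit. In complex II, Sdhd, a membrane anchor, was highest (181) and Sdhc, its partner anchor, lowest (37.7). In complex III, Uqcrb, a small subunit near the quinone site, was highest (176) and Uqcrc1, a core protein, lowest (31.6). In complex IV, Cox6b1, a subunit facing the intermembrane space, was highest (222) and Ndufa4l2, a paralogue of Ndufa4 known from hypoxia, lowest (0.359). In complex V, Atp5b, the catalytic beta subunit, was highest (274) and Atp5s lowest (3.89). Several of these ranks change by coding length: Uqcrh became the highest in complex III (716 CPM per kb), Ndufa4 the highest (1080) and Cox7a1 the lowest (1.47) in complex IV, Ndufv3 the lowest in complex I (28.8) and Sdhb the lowest in complex II (133).

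Tissue-specific isoforms of complex IV were at or near the detection limit. Cox4i2, the lung isoform of subunit 4, had counts of 0 to 5, and the striated muscle isoforms Cox6a2 and Cox8b had counts of 0 to 4 and 0 to 3. Cox7b2 and Cox8c, known from testis, had 0 counts in all libraries. Cox7a1, the muscle isoform of subunit 7a, stood at 0.453 ± 0.104 CPM in control fasted and 0.299 ± 0.0772 CPM in low isoleucine refed livers. Cox6b2, the testis isoform of subunit 6b, lay under 1.7 CPM in every library.

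**Figure D2:**
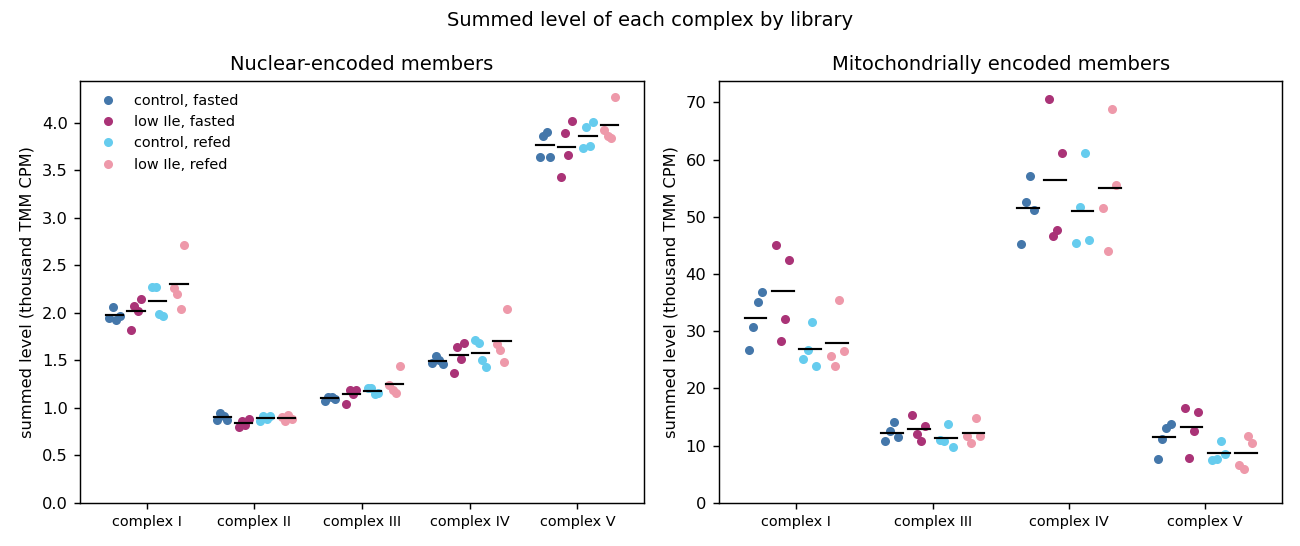
Summed TMM CPM, in kCPM, of the nuclear (left) and mitochondrial (right, copies added) members of each complex, 1 point per library and bars at group means. Library 4 of the low isoleucine refed group is the highest point in nuclear complexes I, III, IV and V, and the low isoleucine fasted mean of complex II (841 CPM) lies under those of the other groups (891 to 902 CPM).

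The first question was whether the low isoleucine diet altered these genes in fasted mice. No member passed. By edgeR 0 of 94 were called, against 0.771% of all genes, and 3 of 94 had an unadjusted p under 0.05, against 10.8% of all genes. DESeq2 called 1 member (2.45% of all genes) and limma-voom 0 (0.71%). Log2 fold changes, low isoleucine minus control, were positive for 67 of 94 members with a median of 0.05, and the median of all genes was 0.01. Members measured in the same libraries share the shifts of those libraries. Counts of positive members, here and below, are therefore descriptions and not counts of replicates. Groups did not overlap for 4 of 94 members, against 8.07% of all genes: Cox6b2 and Ndufab1 lay above the controls on the low isoleucine diet, and Sdha and Sdhb below them.

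Cox6b2 had the smallest p. Its levels were 0.604, 0.546, 0.587 and 0.449 CPM in control fasted libraries 1 to 4, and 0.661, 1.31, 1.69 and 1.68 CPM in low isoleucine fasted libraries 1 to 4. Library 1 of the low isoleucine group thus lay just over the controls and the other 3 far above. The log2 difference was 1.29 (SE 0.31, edgeR adjusted p = 0.0664). DESeq2 called it, and edgeR called it without low isoleucine fasted library 1 or without control refed library 4, with an adjusted p of 0.0125 to 0.216 over the libraries left out. In the authors' deposited table for this comparison it also had the lowest adjusted p of the 80 members listed, 0.0511, with a log2 difference of 1.28, and 0 members were called. The members listed there did not include the 13 mitochondrial genes or Cox7a1, so this count does not cover them.

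The flavoprotein and iron-sulphur subunits of complex II, the enzyme shared with the citric acid cycle, were lower in the low isoleucine libraries without passing. Sdha stood at 445, 477, 476 and 426 CPM in control fasted livers and at 404, 410, 359 and 398 CPM in low isoleucine fasted livers. Its log2 difference was -0.22 (SE 0.10, adjusted p = 0.448). Sdhb stood at 105, 118, 109 and 117 CPM against 82.1, 100.5, 97.0 and 104 CPM, with a difference of -0.23 (SE 0.12, adjusted p = 0.498). The membrane anchors overlapped between diets, and whether they differ from Sdha and Sdhb was not tested. Sdhc was 121 ± 3.46 against 119 ± 9.19 CPM, and Sdhd 213 ± 8.12 against 233 ± 19.3 CPM. Ndufab1 had a difference of 0.30 (adjusted p = 0.301).

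Levels of the remaining core subunits overlapped between diets in fasted mice. In complex I, Ndufs1, the largest iron-sulphur subunit, was 147 ± 11.6 against 150 ± 12.8 CPM, and Ndufv1, which binds NADH, was 93.3 ± 11 against 87.6 ± 16.9 CPM. In complex III, Uqcrc1 was 130 ± 12.7 against 121 ± 19.7 CPM, the Rieske protein Uqcrfs1 159 ± 7.54 against 168 ± 12.9 CPM, and cytochrome c1, Cyc1, 116 ± 2.47 against 120 ± 21.9 CPM. In complex IV, Cox4i1 was 189 ± 17.3 against 208 ± 40.2 CPM and Cox5a 105 ± 13.2 against 113 ± 11.9 CPM. In complex V, the alpha and beta subunits Atp5a1 and Atp5b were 879 ± 20.2 against 825 ± 83.0 and 1161 ± 57.0 against 1128 ± 90.6 CPM.

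With copies added, all 13 mitochondrial genes had positive differences in fasted mice, from 0.07 for mt-Nd3 to 0.52 for mt-Atp8, and 0 passed. These are not 13 separate readings, since mt-Nd4l (bases 9877 to 10173) overlaps mt-Nd4 (10167 to 11544) and mt-Atp8 overlaps mt-Atp6. mt-Nd1, a core membrane subunit of complex I, was 6351 ± 983 against 7720 ± 1993 CPM. mt-Cytb was 12208 ± 1420 against 12913 ± 1965 CPM and mt-Co1 31303 ± 1854 against 34127 ± 6242 CPM. The low isoleucine fasted group was the more spread, with library 1 the highest and library 2 among the lowest for most of these genes.

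Cell markers also stood apart between the fasted diets. The summed hepatocyte markers (9 of 10 tested) ran from 67058 to 100934 CPM in control and 102422 to 122383 CPM in low isoleucine livers, and the 12 Kupffer cell and macrophage markers from 332 to 433 and from 211 to 313 CPM, with no overlap in either list. Lymphocyte markers (9 of 10 tested) ran from 5.35 to 6.48 and from 2.63 to 4.77 CPM, again with no overlap, and 1 of the 9, Cd4, fell. Of the 5 tested erythroid markers 4 had positive differences, all 5 had an unadjusted p under 0.05 and 1, Hbb-bs, rose; their sums overlapped, at 198 to 252 and 246 to 637 CPM. No marker of these lists was at 0 throughout. Of the hepatocyte and Kupffer markers 0 passed in either feeding state. In refed mice 7 of 9 tested hepatocyte markers had positive diet differences, as in fasted mice, and 0 of 12 Kupffer markers did (median -0.40). The refed sums of both lists overlapped between diets. Lymphocyte and erythroid markers were mixed in refed mice, with 4 of 9 and 2 of 5 positive. The part of these differences in the values of the respiratory genes was not tested.

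The second comparison was of the diets in refed mice, and again no member passed. By edgeR 0 of 94 were called (0.174% of all genes), and 2 of 94 had an unadjusted p under 0.05 (9.76% of all genes). DESeq2 and limma-voom also called 0 members, against 1.11% and 0.181% of all genes. Differences were positive for 80 of 94 members, with a median of 0.11 against -0.01 over all genes. The nuclear median was 0.12, but 0.02 without low isoleucine refed library 4 and 0.06 without control refed library 4. The groups of 1 member did not overlap, against 4.44% of all genes; this was Cox7a1, lower by 0.60 on the log2 scale at under 1 CPM (adjusted p = 0.502).

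The smallest p belonged to Ndufb11, an accessory subunit of the complex I membrane arm. Its levels were 81.4, 74.7, 69.3 and 61.9 CPM in refed controls, and 83.7, 79.8, 74.7 and 104 CPM in low isoleucine refed libraries, which overlapped. The difference was 0.25 (SE 0.11, adjusted p = 0.477). Low isoleucine refed library 4 also had the highest Cox4i1 of all libraries, 294 CPM against 158 to 223 in the other 3 of its group. Nuclear complex I summed to 2715 CPM in that library and to 2038 to 2260 CPM in the other 3.

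Genes for ribosomal proteins, which encode no member of the chain, had positive diet differences beside them: 77 of 77 in fasted mice (median 0.32) and 76 of 77 in refed mice (median 0.31). Short transcripts also had the larger differences in refed mice, with a Spearman correlation of -0.17 between exon length and the difference across 14891 genes, given as a description since genes of a library share its depth and RNA quality. The nuclear members are short, with a median exon length of 1675 bases against 4042 over all genes. The part of transcript length in the refed difference was not tested.

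The diet difference itself did not differ detectably between feeding states. For the interaction, refed minus fasted diet difference, edgeR and limma-voom called 0 of 94 members and 0.0% of all genes, and DESeq2 0 members against 0.253%. An unadjusted p under 0.05 was reached by 2 of 94, against 6.22% of all genes. One was the bare identifier of mt-Atp6, at 0.71 (SE 0.26, adjusted p = 0.702), which turned to -0.17 (adjusted p = 0.997) once its copy was added. The other was Sdhb, at 0.38 (SE 0.16, adjusted p = 0.78). Ndufb3, an accessory subunit of complex I, came next at 0.35 (adjusted p = 0.82). The nuclear median of the interaction was 0.06 and turned to -0.04 without low isoleucine refed library 4.

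**Figure D3:**
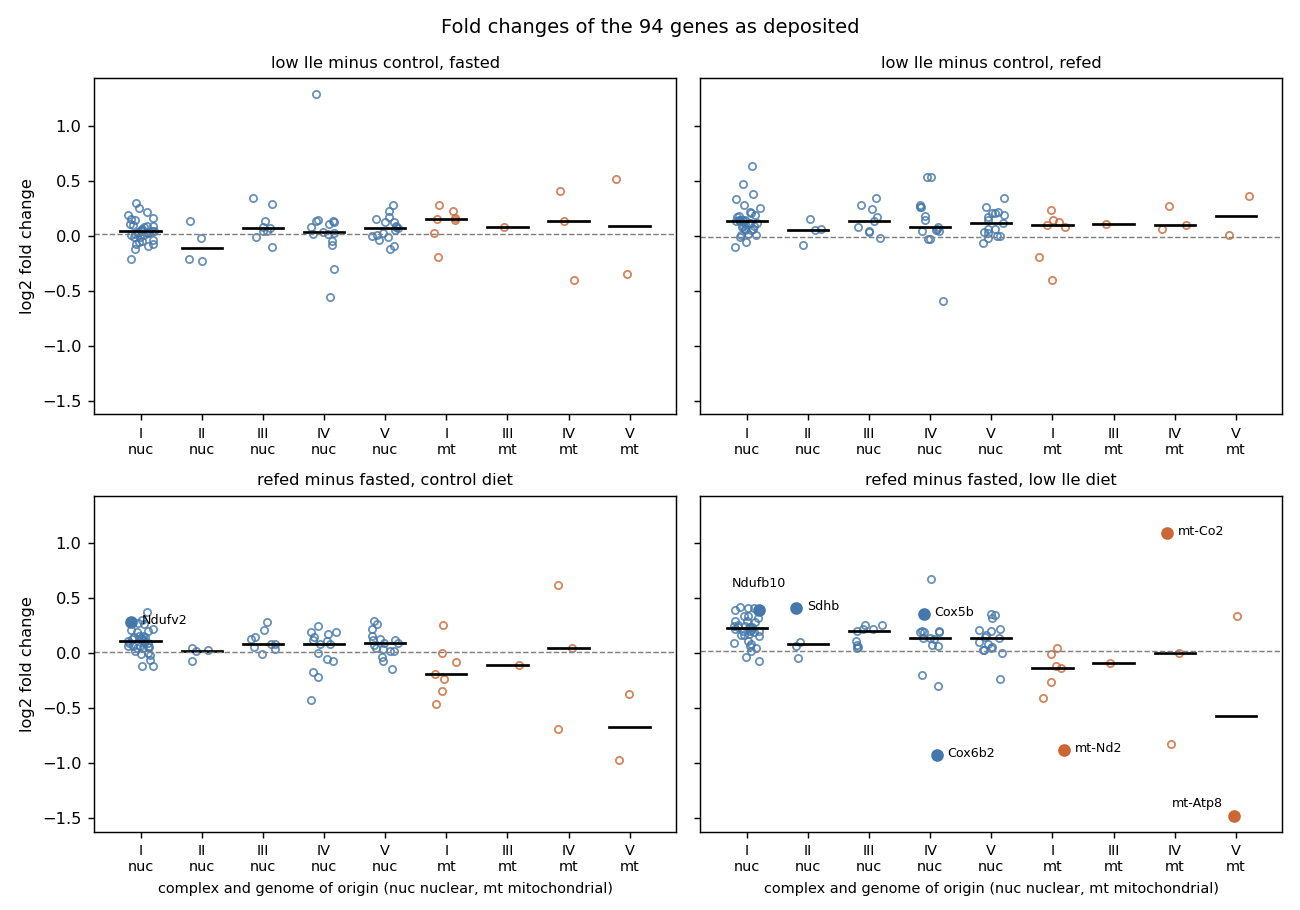
Log2 fold changes of the 94 genes as deposited, 1 point per gene, by complex and genome of origin in the 4 comparisons; filled points passed at an adjusted p under 0.05, bars are medians of the members and dashed lines medians of all genes. Nuclear points lie mostly above the dashed line after refeeding and mitochondrial points mostly below it.

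Refeeding was the larger contrast. In control-fed mice, 1 of 94 members passed (Ndufv2, higher), while 17.1% of all genes did, 8.91% higher and 8.20% lower. The number with an unadjusted p under 0.05 was 8 of 94 (29.4% of all genes). DESeq2 called 3, all higher (Ndufv2, Atp5mpl and Cox7a2; against 18.1% of all genes), and limma-voom 1 (Ndufv2, against 16.4%). Nuclear members had a median difference, refed minus fasted, of 0.09, and 65 of 81 were positive; with copies added the mitochondrial median was -0.23, and 2 of 13 were positive. The median of all genes was 0.01. By library, the nuclear sums overlapped between feeding states, at 9020 to 9529 CPM fasted and 9273 to 10024 CPM refed. So did the mitochondrial sums with copies, at 90534 to 119476 and 88156 to 117234 CPM. Groups did not overlap for 8 members, all nuclear and all higher in refed livers, against 19.1% of all genes.

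Ndufv2, a small iron-sulphur subunit of the NADH-binding tip of complex I (chr17:66078638-66101559, minus strand), had 89.8, 94.3, 94.3 and 82.2 CPM in control fasted livers and 101, 115, 113 and 111 CPM in control refed livers. Every refed library lay above every fasted one. The rise was 1.22-fold (log2 0.29, SE 0.09, adjusted p = 0.0379). It is a borderline call: leaving out 1 library at a time gave adjusted p-values from 0.0322 to 0.119, and the call was lost for 8 of 16 libraries (each control fasted library, control refed libraries 2, 3 and 4, and low isoleucine refed library 1). It was also lost with no filter on low counts, with only the compared groups and with a replicate block by mark. On the low isoleucine diet Ndufv2 had 94.8, 101, 84.1 and 101 CPM fasted and 112, 103, 109 and 117 CPM refed, a difference of 0.21 (adjusted p = 0.102).

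Next by p on the control diet came Atp5mpl, a small proteolipid of complex V, with a difference of 0.29 (SE 0.10, adjusted p = 0.0625), and Ndufab1, with 0.30 (SE 0.11, adjusted p = 0.0757). The libraries of neither gene overlapped between feeding states. Leaving out low isoleucine fasted library 3 brought Atp5mpl past the threshold, leaving out low isoleucine refed library 4 did so for Ndufab1, and leaving out control refed library 2 did so for Cox7a2l, lower after refeeding.

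On the low isoleucine diet 7 of 94 members passed as deposited, 4 higher and 3 lower in refed livers. Of all genes 21.4% did, 9.60% higher and 11.8% lower. Among the 4 was the bare identifier of mt-Co2, and with copies added 6 members passed, without mt-Co2. An unadjusted p under 0.05 was reached by 21 of 94 (33.4% of all genes). DESeq2 called 10 members (22.3% of all genes) and limma-voom 6 (21.6%). The nuclear median was 0.19 with 74 of 81 positive, the mitochondrial median with copies -0.27 with 1 of 13 positive, and the median of all genes 0.02. By library, the nuclear sums overlapped between feeding states here too, at 8456 to 9914 CPM fasted and 9439 to 11343 CPM refed. The mitochondrial sums with copies also overlapped, at 94701 to 147387 and 84586 to 130729 CPM. The nuclear median was 0.07 without low isoleucine refed library 4 and 0.11 without low isoleucine fasted library 1. The bare mitochondrial identifiers had a median of -0.11, which went to 0.0031 without low isoleucine fasted library 1. The count of 7 fell to 2 without low isoleucine fasted library 3 or low isoleucine refed library 4, to 3 without low isoleucine refed library 2, and to 4 without low isoleucine fasted library 1 or 4 or low isoleucine refed library 1. Beside this, 75 of 77 ribosomal protein genes were positive on refeeding on the low isoleucine diet (median 0.15) and 74 of 77 on the control diet (median 0.13). Exon length correlated with the difference over all genes at -0.21 and -0.12 (Spearman). The erythroid markers Hbb-bt and Hbb-bs and the hepatocyte markers Hnf4a and Apob fell on refeeding on the low isoleucine diet. There 3 of 9 tested hepatocyte markers (median -0.16) and 1 of 9 endothelial markers (median -0.36) had positive differences. On the control diet 2 of 9 (median -0.19) and 1 of 9 (median -0.33) did, and of the stellate markers Lrat rose and Reln fell. The part of length and of cell make-up in the nuclear medians was not tested. Groups did not overlap for 11 members, 9 higher and 2 lower, against 24.6% of all genes. Among the 9 was the bare identifier of mt-Co2, whose groups overlapped with the copy added.

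By complex, nuclear medians on the low isoleucine diet were 0.23 in complex I (34 of 36 positive), 0.08 in complex II (3 of 4), 0.20 in complex III (9 of 9), 0.14 in complex IV (12 of 15) and 0.14 in complex V (16 of 17). With control diet they were 0.11 (30 of 36), 0.02 (3 of 4), 0.09 (8 of 9), 0.08 (10 of 15) and 0.09 (14 of 17). Whether the complexes differ from each other was not tested. Scaling by library size alone moved the median of all genes by 0.12 on the control and 0.11 on the low isoleucine diet. It raised the calls to 7 higher and 0 lower on the control and 20 higher and 2 lower with low isoleucine. Relative to all genes the nuclear medians were 0.08 and 0.17 by TMM and 0.07 and 0.18 by library size.

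Sdhb (chr4:140961203-140979193, plus strand) rose on refeeding on the low isoleucine diet. From 82.1, 100.5, 97.0 and 104 CPM fasted it went to 125, 109, 119 and 157 CPM refed, with no overlap. The rise was 1.33-fold (log2 0.41, SE 0.12, adjusted p = 0.0184), and it was lost without low isoleucine fasted library 1 or low isoleucine refed library 4 (adjusted p up to 0.0717). On the control diet Sdhb was 112 ± 6.05 fasted and 115 ± 10.0 CPM refed, a difference of 0.03 (adjusted p = 0.917); the difference between the diets is the interaction given above, which did not pass.

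Ndufb10, an accessory subunit of the complex I membrane arm (chr17:24722060-24724478, minus strand), rose 1.31-fold on the low isoleucine diet (log2 0.39, SE 0.11, adjusted p = 0.0205). Its levels were 69.0, 67.4, 66.2 and 77.9 CPM fasted and 90.6, 91.1, 75.4 and 111 CPM refed, and refed library 3 lay within the fasted range. The call was lost without low isoleucine fasted library 2 or 3 or low isoleucine refed library 4. On the control diet the libraries did not overlap, with 69.0 ± 5.03 against 83.4 ± 7.42 CPM, and the difference was 0.27 (adjusted p = 0.115).

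Cox5b, a zinc-binding subunit of complex IV (chr1:36691449-36693681, plus strand), had 61.3, 81.8, 67.7 and 81.4 CPM fasted and 96.2, 89.3, 80.1 and 108 CPM refed on the low isoleucine diet. Refed library 3 lay within the fasted range. The rise was 1.28-fold (log2 0.35, SE 0.12, adjusted p = 0.0444), and leaving out 1 library at a time held the call for 6 of 16 libraries. It was lost without any control fasted library, low isoleucine fasted library 1 or 3, control refed library 2, or low isoleucine refed library 1, 2 or 4, with an adjusted p of up to 0.143. On the control diet it was 77.5 ± 5.15 against 88.6 ± 9.55 CPM (adjusted p = 0.313).

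Cox6b2 fell on refeeding on the low isoleucine diet, from 0.661, 1.31, 1.69 and 1.68 CPM to 0.852, 0.651, 0.479 and 0.832 CPM. Fasted library 1 lay within the refed range. The change was 0.527-fold (log2 -0.93, SE 0.30, adjusted p = 0.0344). It was lost without low isoleucine fasted library 2, 3 or 4 or low isoleucine refed library 2 or 3. On the control diet it was 0.547 ± 0.0695 against 0.483 ± 0.119 CPM (adjusted p = 0.798).

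**Figure D4:**
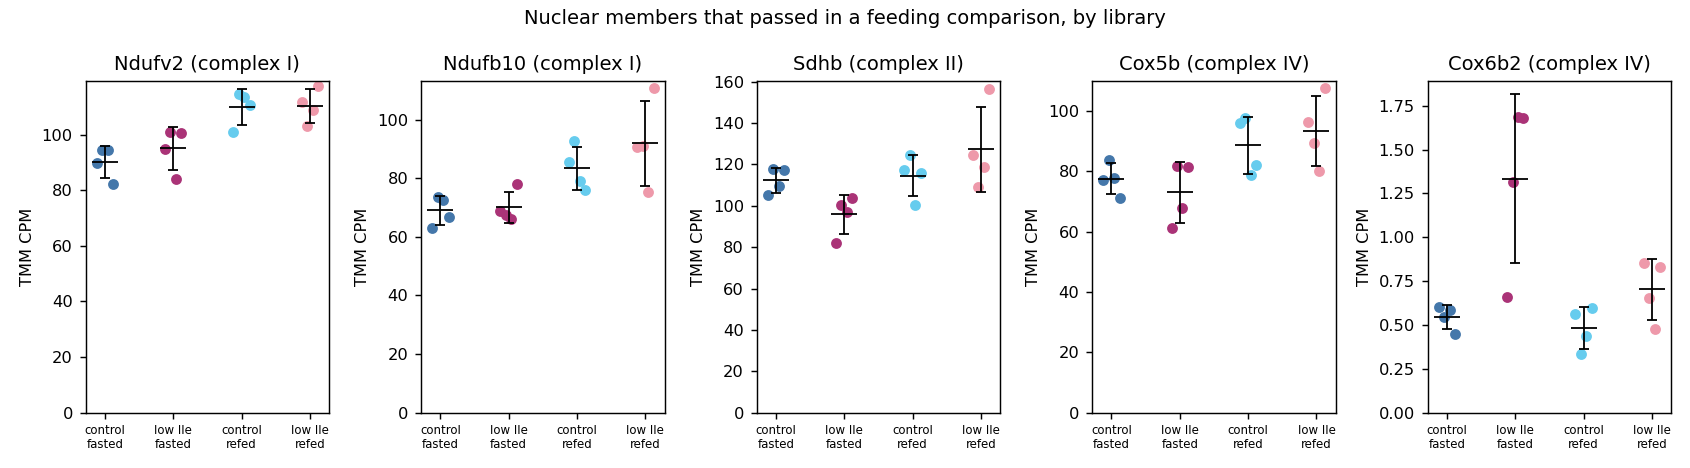
TMM CPM of the 5 nuclear members that passed in a feeding comparison, 1 point per library, with group mean and SD. Ndufv2 libraries separate by feeding state on both diets, while single libraries of Ndufb10, Cox5b and Cox6b2 cross between fasted and refed on the low isoleucine diet.

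Of the 11 core nuclear subunits named by rule, Sdhb passed on the low isoleucine diet and the other 10 passed on neither. Between low isoleucine fasted and refed livers, Ndufs1 went from 150 ± 12.8 to 146 ± 24.6 CPM, Ndufv1 from 87.6 ± 16.9 to 98 ± 15.8, Sdha from 393 ± 23.1 to 410 ± 45.5 and Uqcrc1 from 121 ± 19.7 to 141 ± 20.9. Uqcrfs1 went from 168 ± 12.9 to 173 ± 12 CPM, Cyc1 from 120 ± 21.9 to 143 ± 20.6, Cox4i1 from 208 ± 40.2 to 219 ± 57.3 and Cox5a from 113 ± 11.9 to 118 ± 10.8. Atp5a1 and Atp5b, the most abundant nuclear members, went from 825 ± 83.0 to 855 ± 31.6 and from 1128 ± 90.6 to 1172 ± 44.9 CPM. Adjusted p-values of these 10 genes ran from 0.195 for Cyc1 upward. Cycs, the soluble electron carrier cytochrome c, was 136 ± 13.0 fasted and 158 ± 18.0 CPM refed (adjusted p = 0.284).

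mt-Nd2, a core membrane subunit of complex I at bases 3914 to 4951 of the mitochondrial genome, fell on refeeding on the low isoleucine diet, and of the 8 calls on members it was the 1 that held without each library. Its levels were 10780, 6778, 8101 and 10421 CPM fasted and 4456, 4883, 5672 and 4612 CPM refed, so that the groups did not overlap. The change was 0.544-fold (log2 -0.88, SE 0.18, adjusted p = 0.00194), and leaving out each of the 16 libraries in turn gave adjusted p-values from 0.000761 to 0.00913. In control-fed mice the levels were 6454, 6788, 8281 and 9411 CPM fasted and 5906, 5587, 6671 and 4313 CPM refed, which overlapped in 1 library on each side, with a difference of -0.46 (SE 0.17, adjusted p = 0.0819). No gene with a mean count of 10 or more matched mt-Nd2 at 98% identity over 100 bases.

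mt-Nd2 was also set against mt-Co1 within each library. The ratio of mt-Nd2 to mt-Co1 CPM was 0.210 to 0.311 in control fasted and 0.148 to 0.199 after refeeding of controls, and 0.223 to 0.290 in low isoleucine fasted and 0.127 to 0.165 in low isoleucine refed mice. Feeding states did not overlap on either diet. The ratio of mt-Nd5 to mt-Co1 separated in the same way, at 0.175 to 0.203 against 0.143 to 0.155 on the control diet and 0.181 to 0.203 against 0.106 to 0.169 on the low isoleucine diet. The ratio of mt-Nd1 to mt-Co1 did not separate: it was 0.175 to 0.234 against 0.180 to 0.228, and 0.176 to 0.255 against 0.182 to 0.221. For mt-Nd4 the ratio separated on the control diet, at 0.224 to 0.331 against 0.193 to 0.213, and overlapped with low isoleucine. For mt-Cytb it separated with low isoleucine, at 0.365 to 0.394 against 0.332 to 0.356, and overlapped on the control diet. The divisor mt-Co1 had a feeding difference of 0.07 on both diets, and its part in the ratios was not tested. These ratios were chosen after the values were seen and are given with no test, as a description of unequal change within the mitochondrial transcripts.

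mt-Atp8, a short subunit of complex V at bases 7766 to 7969, was also called lower on refeeding on the low isoleucine diet. Its levels were 1429, 397, 1516 and 1882 CPM fasted and 358, 357, 569 and 586 CPM refed, and fasted library 2 lay within the refed range. The change was 0.358-fold (log2 -1.48, SE 0.47, adjusted p = 0.0341), lost without low isoleucine fasted library 1, 3 or 4 or any low isoleucine refed library. In control livers only fasted library 4 was as high, at 1879 CPM, and the other 3 stood at 368 to 788 CPM against 415 to 578 CPM refed (adjusted p = 0.176). mt-Atp8 is 204 bases long and overlaps mt-Atp6 by 43 bases, shown in capitals because reads there can belong to either gene.
mt-Atp8: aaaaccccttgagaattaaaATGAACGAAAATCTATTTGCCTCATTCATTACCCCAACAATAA
mt-Atp6: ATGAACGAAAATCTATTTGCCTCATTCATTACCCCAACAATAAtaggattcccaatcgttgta
How counts were split over this overlap and over Gm10925 was not tested. The ratio of mt-Atp8 to mt-Atp6 with its copy was 0.0501 to 0.158 in control fasted and 0.0539 to 0.137 in low isoleucine fasted libraries. In refed libraries it was 0.0554 to 0.0592 with control diet and 0.0516 to 0.0635 with low isoleucine. So mt-Atp8 and mt-Atp6 did not change in step, and the part of read assignment in the mt-Atp8 call was not tested. The sum of mt-Atp6 and its copy was 11885 ± 3446 CPM fasted and 8218 ± 2669 CPM refed on the low isoleucine diet (log2 -0.53, adjusted p = 0.143).

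**Figure D5:**
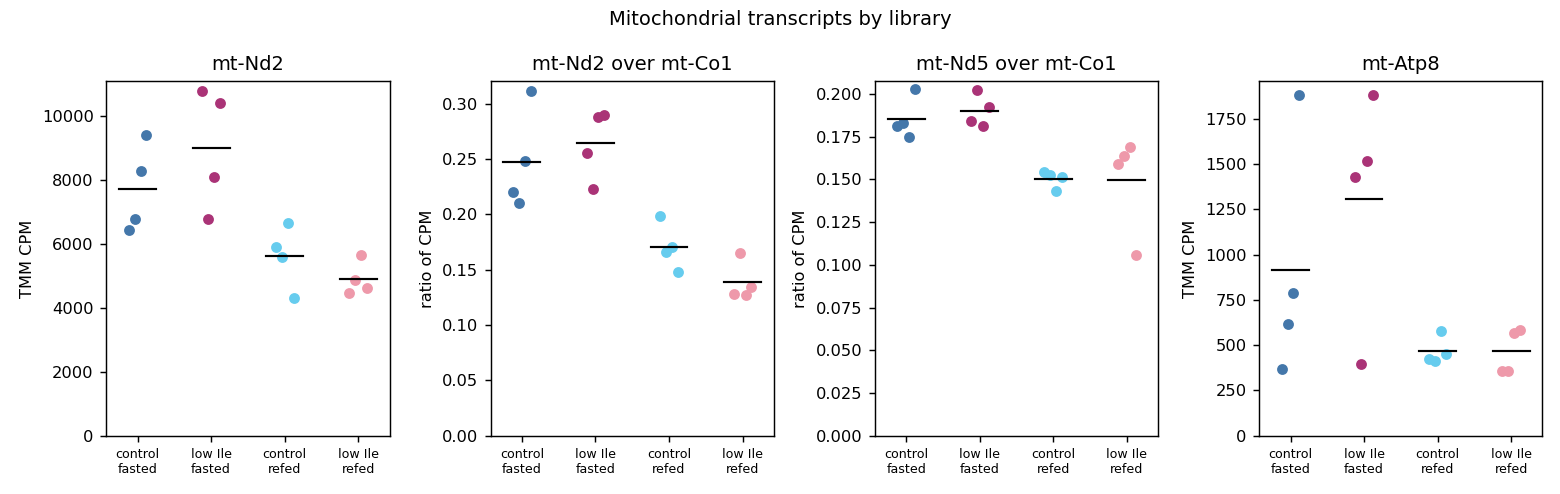
mt-Nd2 and mt-Atp8 in TMM CPM, and the ratios of mt-Nd2 and mt-Nd5 to mt-Co1 (copy added), 1 point per library with bars at group means. Both ratios are lower in every refed library than in every fasted library of the same diet, and mt-Atp8 is high in 4 fasted libraries.

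The bare identifier of mt-Co2, the subunit that takes electrons from cytochrome c, was called higher on refeeding on the low isoleucine diet. It had 78.7, 208, 117 and 53.6 CPM fasted and 269, 229, 239 and 240 CPM refed, a 2.13-fold difference (log2 1.09, SE 0.34, adjusted p = 0.0326). Without low isoleucine fasted library 1, 3 or 4 or any low isoleucine refed library it did not pass. With Gm28661 added the levels were 12885, 7661, 8910 and 11400 CPM fasted and 8100, 7032, 11017 and 9968 CPM refed. These overlapped, and the difference turned to -0.18 (SE 0.18, adjusted p = 0.536).

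The other mitochondrial genes did not pass on either diet with copies added. On the low isoleucine diet, fasted to refed, mt-Nd1 went from 7720 ± 1993 to 7030 ± 1316 CPM, mt-Nd3 from 920 ± 289 to 650 ± 191, mt-Nd4 from 9348 ± 2301 to 7071 ± 1441 and mt-Nd4l from 1366 ± 323 to 900 ± 300. mt-Nd5 went from 6480 ± 1129 to 5390 ± 1645 CPM, mt-Nd6 from 2132 ± 495 to 1971 ± 437 and mt-Cytb from 12913 ± 1965 to 12170 ± 1859. mt-Co1 went from 34127 ± 6242 to 35833 ± 6377 CPM, the 1 positive difference of the 13 at 0.07, and mt-Co3 from 12172 ± 3097 to 10163 ± 2542 CPM. Of the mitochondrial ribosomal RNAs, which poly-A selection largely leaves behind, mt-Rnr2 was 867 ± 320 CPM fasted and 301 ± 96.5 CPM refed on the low isoleucine diet, and 576 ± 129 against 381 ± 85.5 CPM on the control diet. mt-Rnr1 was 638 ± 264 against 329 ± 88.9 CPM and, on the control diet, 430 ± 79.1 against 411 ± 84.1 CPM. The part of what sets these levels in the mRNA differences was not tested.

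Promoters were looked at because factors such as NRF1 and the ETS factor GABP are known to act on nuclear genes of the chain. RefSeq promoters on GRCm38.p6, from 250 bases before to 50 after the start, were matched for 67 of 81 nuclear members (72 promoters). A palindromic NRF1 core of 10 bases, shown in capitals below and read on both strands, stood in 6.94% of the member promoters and 0.971% of all 32851. The ETS core CCGGAAGT stood in 6.94% and 3.89%, the YY1 core AAGATGGCG in 9.72% and 1.40%, and the ERR core TCAAGGTCA in 2.78% and 0.423%. Shown are 3 windows upstream of the start with the NRF1 core, from a small subunit of complex V, an accessory subunit of complex I and the liver isoform of subunit 6a of complex IV.
Atp5k: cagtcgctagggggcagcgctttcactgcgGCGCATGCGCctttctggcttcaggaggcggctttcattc
Ndufa11: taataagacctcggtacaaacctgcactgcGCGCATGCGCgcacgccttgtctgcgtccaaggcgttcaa
Cox6a1: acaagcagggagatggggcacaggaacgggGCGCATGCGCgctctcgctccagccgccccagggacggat
These lie at chr5:108434410-108434479 (minus strand), chr17:56717672-56717741 (plus strand) and chr5:115349081-115349150 (minus strand). The other 2 matches are in the promoters of Atp5g2 and Uqcrc1. Of these 5 genes 0 passed in a comparison, and the promoters of the 5 nuclear members that did (Ndufv2, Ndufb10, Sdhb, Cox5b and Cox6b2) held 0 matches to the 4 motifs. Only exact matches to each core were counted, so variant sites would be missed. With so few promoters and such low shares, no conclusion is drawn from these counts.

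Genes that regulate, assemble and feed the chain were read from lists of 158 genes, of which 150 were tested. In the diet comparisons 0 of 150 passed in either feeding state. On refeeding, 24 rose and 13 fell with control diet and 26 rose and 18 fell with low isoleucine, or 24.7% and 29.3% of those tested, beside the 17.1% and 21.4% of all genes.

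Of 15 tested transcriptional regulators of respiratory genes, 3 rose and 4 fell with control diet and 1 rose and 6 fell with low isoleucine. Ppargc1a, the coactivator PGC-1 alpha induced by fasting, was 17.2 ± 7.53 CPM fasted and 5.02 ± 2.05 CPM refed on the control diet (log2 -1.76, adjusted p = 0.00156), and 16.3 ± 5.21 against 4.64 ± 1.14 CPM on the low isoleucine diet (log2 -1.81, adjusted p = 0.00102). Ppara, the nuclear receptor of the fasted liver, fell by 1.31 and 1.77 on the log2 scale, and Ppargc1b, the related coactivator, fell by 1.85 and 1.70. Pprc1, a further coactivator of this family, rose on both diets, by 0.88 and 0.67. Nrf1 rose on the control diet, from 5.94 ± 0.232 to 9.44 ± 0.839 CPM (adjusted p = 0.00861), and was 7.61 ± 1.76 against 9.63 ± 1.39 CPM on the low isoleucine diet (adjusted p = 0.145). Gabpa, the DNA-binding subunit of GABP, fell on the low isoleucine diet, from 34.1 ± 1.79 to 24.2 ± 2.23 CPM (adjusted p = 0.00236), and had an adjusted p of 0.0528 on the control diet; it shares sequence in the opposite sense with the member Atp5j, and had 14.1% of their joint counts. Esrra did not pass (9.25 ± 3.58 against 10.4 ± 4.61 CPM on the control diet, adjusted p = 0.862).

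Assembly factors were read by complex. For complex I, 3 of 17 rose and 1 fell with control diet and 6 rose and 0 fell with low isoleucine; Ndufaf4 rose by 0.76 and 0.53 on the log2 scale and Ndufaf5 by 0.70 and 0.61. For complexes II and III, 3 of 11 and 4 of 11 rose and 0 fell. Sdhaf1, which helps to insert iron-sulphur clusters into Sdhb, went from 6.69 ± 0.462 to 12.2 ± 0.771 CPM with control diet and from 7.85 ± 1.19 to 14.3 ± 0.275 CPM with low isoleucine (adjusted p = 0.000123 and 6.9e-05). Bcs1l, which inserts the Rieske protein, rose by 0.49 and 0.57. For complex IV, 6 of 23 rose and 1 fell with control diet and 5 rose and 2 fell with low isoleucine; Cox10, the heme A farnesyltransferase, rose by 0.82 and 0.70 and Coa3 by 0.52 and 0.46. The gene that fell on both diets was Sco2, a copper chaperone, but 68.3% of its exon bases are shared with Tymp on the same strand, so its values are uncertain. Of the 5 assembly factors of complex V 0 passed on either diet.

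Genes of mitochondrial DNA upkeep and transcription went both ways, with 1 of 18 higher and 3 lower with control diet and 2 higher and 4 lower with low isoleucine. Mgme1, a mitochondrial exonuclease, went from 4.59 ± 0.239 to 8.53 ± 0.926 CPM on the control diet (log2 0.89, adjusted p = 0.000241) and rose by 0.92 on the low isoleucine diet. Polg, the mitochondrial DNA polymerase, fell by 0.49 and 0.59, and Tfb2m, a transcription factor of the mitochondrial promoters, fell by 0.40 and 0.61. Tfam, which packages mitochondrial DNA, was 45.4 ± 3.72 against 40.1 ± 1.52 CPM on the control diet (adjusted p = 0.193) and fell from 47.6 ± 4.34 to 39.1 ± 0.971 CPM on the low isoleucine diet (log2 -0.28, adjusted p = 0.0287). Of 14 genes of mitochondrial RNA processing, 5 rose and 1 fell with control diet and 3 rose and 1 fell with low isoleucine; Supv3l1, a helicase of the mitochondrial RNA degradosome, rose by 0.39 and 0.51, and Slirp, which binds mitochondrial mRNAs, by 0.39 and 0.48.

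Next came the enzymes that feed the chain. Idh3a, a subunit of the NAD-dependent isocitrate dehydrogenase, rose on both diets, by 0.63 and 0.33 on the log2 scale, and Cs, citrate synthase, rose by 0.44 on the control diet; with these 2 of 14 citric acid cycle genes rose with control diet and 1 with low isoleucine, and 0 fell. Etfdh, which passes electrons of fatty acid oxidation to ubiquinone, fell from 607 ± 55.6 to 444 ± 22.2 CPM with control diet and from 705 ± 67.4 to 474 ± 77.3 CPM with low isoleucine (adjusted p = 0.0193 and 0.00341). Of the 10 electron carriers tested it was the 1 that passed on the control diet; with low isoleucine Gpd2, the mitochondrial glycerol phosphate dehydrogenase, also fell, by 0.53, and Prodh, proline dehydrogenase, and Sqor, sulfide quinone oxidoreductase, rose by 0.66 and 0.43. Coq8a, a kinase-like protein of coenzyme Q synthesis, fell by 1.09 and 0.94, and Pdss1, which makes the coenzyme Q side chain, rose by 0.71 and 0.78; in all 1 of 13 coenzyme Q genes rose and 2 fell on the control diet, and 2 rose and 1 fell on the low isoleucine diet. Of 10 tested carriers and uncoupling proteins, 0 passed with control diet and 2 fell with low isoleucine, Slc25a30 and Ucp2.

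Control refed library 4 stood apart in cell markers: its sums of Kupffer cell, stellate, endothelial, lymphocyte and neutrophil markers were the highest of the 16 libraries, with 459 CPM of Kupffer markers against at most 433 in the others and 585 CPM of stellate markers against at most 442. Without it the nuclear median on refeeding on the control diet was 0.15, Ndufv2 lost its call and 0 members passed. Markers of striated muscle were at most 1.01 CPM in sum outside the low isoleucine fasted group, where they reached 7.75 CPM in 1 library, and the muscle isoforms Cox6a2 and Cox8b stayed at the counts given above.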

How the data were processed

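Stranded poly-A libraries of 16 liver samples were sequenced over several lanes whose data were merged, per the labels' protocols. The deposited gene table holds expected counts, not normalized; its name gives RSEM as the tool. The authors also deposited, for the diets in each feeding state, tables in which, per the file headers, log2 values (fold change and mean CPM), a test score (F) and p-values, raw and adjusted, stand for each gene. Per the submitters' processing notes edgeR, limma and R 3.5.3 were used, without their roles. For the aligner, genome build, annotation and counting strand, each is not given in the sources used here.

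Expected counts were rounded and fitted in R 4.3.3 with edgeR 4.0.16 (filterByExpr with a minimum count of 10 and a total of 15, TMM, robust quasi-likelihood, 1 mean per group over all 16 libraries). Dividing the size of a log2 fold change by the root of its F value gave the SE. DESeq2 1.42.0 and limma 3.58.1 (voom) were alternatives. Symbols were matched for 51633 of 51912 identifiers. Positions and lengths come from GENCODE M21; the authors' build may differ. Near-identical genes were sought with BLAST+ 2.17.0+ at 98% identity over 100 bases. The members and the gene lists were chosen with earlier results of these data known.

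The rule for named genes took all mitochondrial members, 11 core nuclear subunits, up to 8 passing members per direction (the 3 smallest p where fewer than 3 passed), extremes per length, tissue isoforms, 6 regulators, and up to 2 passing genes per list and direction, of which not all are printed. Tried alternatives were other scalings, filters, tools, a non-robust fit, only the compared groups, no mitochondrial genes, a block by mark, each library left out and, after the data were seen, sums with nuclear copies and coding lengths. The tests were checked on simulated data. The labels give separate samples without saying that each is its own mouse, so p-values measure only the spread between these samples, which may be technical.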

Additional observations from a re-analysis of the deposited data

Results flagged for a closer look

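In 6 of 140 groups of 4 libraries that were checked, 1 library lay far from the other 3, with a gap to its nearest neighbour that passed Dixon's critical value. Chance alone would set a library apart in about 1 in 20 independent groups. The groups checked share libraries, so their number cannot show whether there is a pattern. Atp5a1 was 701 CPM in low isoleucine fasted library 1 and 858 to 876 CPM in the other 3. Atp5mpl was 57.5 CPM in low isoleucine fasted library 3 and 72.2 to 73.3 CPM in the others. Cox5a was 95.4 CPM in the same library and 118 to 120 CPM in the others. Uqcrfs1 was 191 CPM in low isoleucine refed library 4 and 166 to 169 CPM in the others. mt-Nd4l with its copy was 1250 CPM in control refed library 3 and 781 to 844 CPM in the others, and 1350 CPM in low isoleucine refed library 3 and 709 to 795 CPM in the others.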

How the results depend on the processing

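Counts of members past the threshold moved with the processing in 3 comparisons; in the refed diet comparison and the interaction they were 0 under all alternatives run. In fasted mice the diet comparison gave 0 members, 1 by DESeq2 and 0 to 1 without 1 library. Refeeding on the control diet gave 1 member, 7 by library size alone, 3 by DESeq2, 0 with no filter, 0 with only the compared groups, and 0 to 2 without 1 library. Refeeding with low isoleucine gave 7 members, 11 by upper-quartile scaling, 22 by library size alone and 6 with copies added. It gave 3 with no filter, 4 without mitochondrial genes, 3 with only the compared groups, and 2 to 8 without 1 library. The cause was not tested, except that the fit without mitochondrial genes holds fewer members. With copies added, a step chosen after seeing the data, the mt-Atp6 interaction turned to -0.17 and mt-Co2 on refeeding with low isoleucine to -0.18. Without 1 library the nuclear median ran from 0.055 to 0.15 on refeeding with control diet, from 0.069 to 0.25 with low isoleucine, and from -0.043 to 0.12 for the interaction. A replicate block by mark gave 0 members for refeeding with control diet and 6 with low isoleucine. Correlations of 24 same-mark pairs ran from -0.325 to 0.323 (median 0.0311), and 8 were above 0.1. Of 16 libraries 8 correlated best with their own mark. No baseline was computed for these values, so they do not decide whether the marks pair libraries.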
